A study of Mus musculus with 12 samples.

Results

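MHC class II molecules carry peptides from ingested material to the cell surface, where helper T cells read them. To describe this pathway in subcutaneous fat under cold exposure, 7 genes were chosen by name for their roles in it. No rule on their measured values was used, but earlier results of these data were known. The genes are the chain genes *H2-Aa*, *H2-Ab1* and *H2-Eb1*, the peptide editor genes *H2-DMa* and *H2-DMb1*, the invariant chain gene *Cd74* and the transactivator gene *Ciita*. They are 7 of the 55401 gene IDs counted in each library, and all 7 were among the 16540 genes that passed the filter on low counts.

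Subcutaneous white adipose tissue (scWAT), a fat depot below the skin, was taken for RNA-seq from 12 females that were 16 weeks old when the treatment began. Each of 4 groups held 3 mice, 1 library per mouse. Wild-type (*Jmjd1a* +/+) mice and *Jmjd1a* HY/HY mice were acclimated for 1 week at 30°C, which is thermoneutral for a mouse, and were then kept for 1 week at either 30°C or 8°C in individual cages. The HY allele is a knock-in made by genome editing in C57BL/6J eggs that encodes the H1122Y substitution, which removes the histone demethylase activity of JMJD1A (gene *Kdm3a*). It is present in all cells of the body, so no group had the substitution in adipocytes alone, and the HY/HY females came from 1 line. The unit of all levels below is CPM, counts per 1000000 on library sizes scaled by the TMM method of edgeR.

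The alpha and beta chains of a class II molecule are held together with the invariant chain CD74. In the endosome, its remnant in the groove is exchanged for a peptide by the H2-DM heterodimer. The genes are expressed constitutively by dendritic cells, B cells and many macrophages, and can be induced in other cells by interferon gamma. CIITA does not bind DNA itself but is recruited to promoters by factors that sit on conserved X and Y boxes. In white fat, class II molecules are found mostly on resident macrophages and dendritic cells, and adipocytes have also been described to display them. In a bulk sample, fewer cells of a type and less RNA per cell cannot be told apart.

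By the RefSeq annotation of GRCm38.p6, the assembly called mm10, 5 of the 7 genes lie in the MHC on chromosome 17. *H2-Aa* (ENSMUSG00000036594.15, chr17:34282744-34287823) encodes the alpha chain of I-A, and *H2-Ab1* (ENSMUSG00000073421.6, chr17:34263227-34269418) its beta chain. *H2-Eb1* (ENSMUSG00000060586.11, chr17:34305867-34316674) encodes the beta chain of I-E. *H2-DMa* (ENSMUSG00000037649.10, chr17:34119693-34139101) and *H2-DMb1* (ENSMUSG00000079547.4, chr17:34153191-34160229) encode the chains of the peptide editor. *Ciita* (ENSMUSG00000022504.10) is at chr16:10480014-10531064. All are annotated as protein coding.

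The promoter sequences are shown because class II genes are known for X and Y boxes in their promoters. No window of *H2-Ab1*, *Cd74* or *Ciita* was examined, so nothing is said of motifs in these genes. Windows from 250 bases before to 50 bases after a RefSeq start site were examined for 4 of the members. In 3 of these the Y box core TGATTGG, which holds the CCAAT box on the other strand, was found within 63 bases before the start, and in 2 of them the motif AACTGATG, a core of the X box, was found upstream of it. Both motifs were chosen after the windows had been read, and were searched on both strands of the 250 upstream bases without overlapping each other. The stretches are written 5′ to 3′ along the gene in lower case, with both motifs in capitals. They lie at chr17:34287855-34287933 (minus strand) for *H2-Aa*, chr17:34305746-34305824 (plus strand) for *H2-Eb1* and chr17:34153068-34153146 (plus strand) for *H2-DMb1*, all in GRCm38.p6.
H2-Aa: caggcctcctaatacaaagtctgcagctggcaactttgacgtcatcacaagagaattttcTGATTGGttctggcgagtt
H2-Eb1: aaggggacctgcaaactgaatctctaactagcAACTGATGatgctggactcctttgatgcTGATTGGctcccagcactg
H2-DMb1: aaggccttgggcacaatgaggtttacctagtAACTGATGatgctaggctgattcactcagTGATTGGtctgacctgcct

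In *H2-Eb1* the X box core began 28 bases before the Y box core, and in *H2-DMb1* 29 bases before it. The window of *H2-Aa* had no match to the same X box letters. Of 32851 promoter windows examined, 7.23% held the Y box core, 0.676% held the X box core and 0.073% held both. Of the other class II chains, the 4 with a window (*H2-Eb2*, *H2-Oa*, *H2-Ob* and *H2-DMb2*) also each held the Y box core, and *H2-Eb2* held the X box core 28 bases before it. Both windows of *H2-DMa*, which belong to internal starts, held neither motif. These matches are of letters only, and binding was not measured.

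The libraries held from 13592629 to 26352081 read pairs on the sense strand of genes, and each library at 8°C held fewer than each library at 30°C. The counts do not tell the HY allele from the wild-type allele. At 30°C the mean of *Kdm3a* was 49.3 ± 11.2 CPM (SD, n = 3) for wild-type and 45.5 ± 7.68 for HY/HY mice, and at 8°C it was 39.9 ± 3.78 and 44.8 ± 1.4. White adipocyte markers summed to 22006 to 48349 CPM over the 12 libraries, with *Adipoq*, the adiponectin gene, at 1214 to 3790 CPM. Some libraries stood apart in markers of other tissue. Skeletal muscle markers summed to 1409 CPM in wild-type library 2 at 30°C against 37.7 to 92.1 in the other 11. B cell markers other than *Ighm* summed to 27.6 CPM in wild-type library 3 and 22.6 in HY/HY library 1 at 30°C against 4.08 to 12.9 elsewhere. The beige adipocyte markers, which are the label check for cold, summed to 8352 to 9271 CPM in wild-type mice and 533 to 1680 in HY/HY mice at 8°C, and to 65.5 to 242 at 30°C.

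All 7 genes were detected in each of the 12 libraries. Read pairs ranged from 1804 to 9808 for *Cd74*, from 1276 to 7671 for *H2-Aa*, from 98 to 529 for *H2-DMa*, from 114 to 458 for *H2-DMb1* and from 20 to 124 for *Ciita*. The levels of different genes are not compared with each other, since gene lengths of the annotation used were not at hand. HY/HY library 1 at 30°C was the highest library for each of the 7 genes. Wild-type library 3 at 8°C was the lowest for 6 of them, the exception being *H2-DMb1*, whose lowest library was HY/HY library 3 at 30°C. From the lowest to the highest library the level differed 3.10-fold for *H2-Eb1* to 3.74-fold for *Ciita*, but 2.12-fold for *H2-DMb1*.

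*H2-Aa* was at 153, 131 and 164 CPM in wild-type libraries 1, 2 and 3 at 30°C and at 124, 96.3 and 83.5 CPM at 8°C. In HY/HY mice it was at 297, 176 and 142 CPM at 30°C and at 193, 155 and 144 CPM at 8°C. The 3 wild-type libraries at 8°C were thus below the other 9, while the HY/HY libraries at 30°C overlapped both the wild-type libraries at 30°C and the HY/HY libraries at 8°C. *H2-Ab1*, the partner chain, was at 124, 109 and 131 CPM in wild-type mice at 30°C and 106, 88.7 and 67.2 CPM at 8°C. It was at 234, 142 and 107 CPM in HY/HY mice at 30°C and 156, 123 and 108 CPM at 8°C. As with *H2-Aa*, no wild-type library at 8°C reached any library of the other groups.

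*H2-Eb1* was at 138, 119 and 157 CPM in wild-type mice at 30°C and 117, 99.1 and 80.6 CPM at 8°C. In HY/HY mice it was at 250, 164 and 119 CPM at 30°C and 174, 133 and 121 CPM at 8°C. The group order of *H2-Eb1* was that of the I-A chains. The alpha chain gene of I-E, *H2-Ea*, was at 0 in all 12 libraries, which allows at most 0.103 to 0.244 CPM in a library at 3 counts. C57BL/6 mice are known to carry a defective copy of this gene, so that the I-E beta chain lacks its partner.

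*Cd74* (ENSMUSG00000024610.15, chr18:60803849-60812652), the invariant chain, was at 201, 177 and 222 CPM in wild-type mice at 30°C and 185, 158 and 116 CPM at 8°C. It was at 380, 252 and 195 CPM in HY/HY mice at 30°C and 270, 214 and 202 CPM at 8°C. The wild-type groups overlapped, and at 8°C each HY/HY library was above each wild-type library. *Ciita*, the transactivator, was at 2.40, 2.45 and 2.76 CPM in wild-type mice at 30°C and 2.45, 1.89 and 1.28 CPM at 8°C. It was at 4.80, 3.55 and 2.03 CPM in HY/HY mice at 30°C and 3.69, 3.19 and 2.84 CPM at 8°C. It had the fewest read pairs of the 7, and at 8°C the genotypes did not overlap.

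*H2-DMa*, the alpha chain of the peptide editor, was at 15.2, 15.8 and 14.2 CPM in wild-type mice at 30°C and 11.1, 8.68 and 6.29 CPM at 8°C. It was at 19.9, 18.2 and 9.51 CPM in HY/HY mice at 30°C and 15.5, 10.4 and 10.6 CPM at 8°C. The wild-type groups were apart, whereas the genotypes overlapped at both temperatures. *H2-DMb1*, the beta chain, was at 15.4, 13.9 and 12.1 CPM in wild-type mice at 30°C and 11.1, 13.2 and 11.5 CPM at 8°C. It was at 17.7, 14.0 and 8.37 CPM in HY/HY mice at 30°C and 11.4, 10.1 and 9.26 CPM at 8°C. The libraries of *H2-DMb1* overlapped in all 4 comparisons between groups. A close copy, *H2-DMb2*, lies beside *H2-DMb1*, and read pairs that align to several places were not counted, so that the share of reads lost or assigned between these copies is uncertain.

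**Figure D1:**
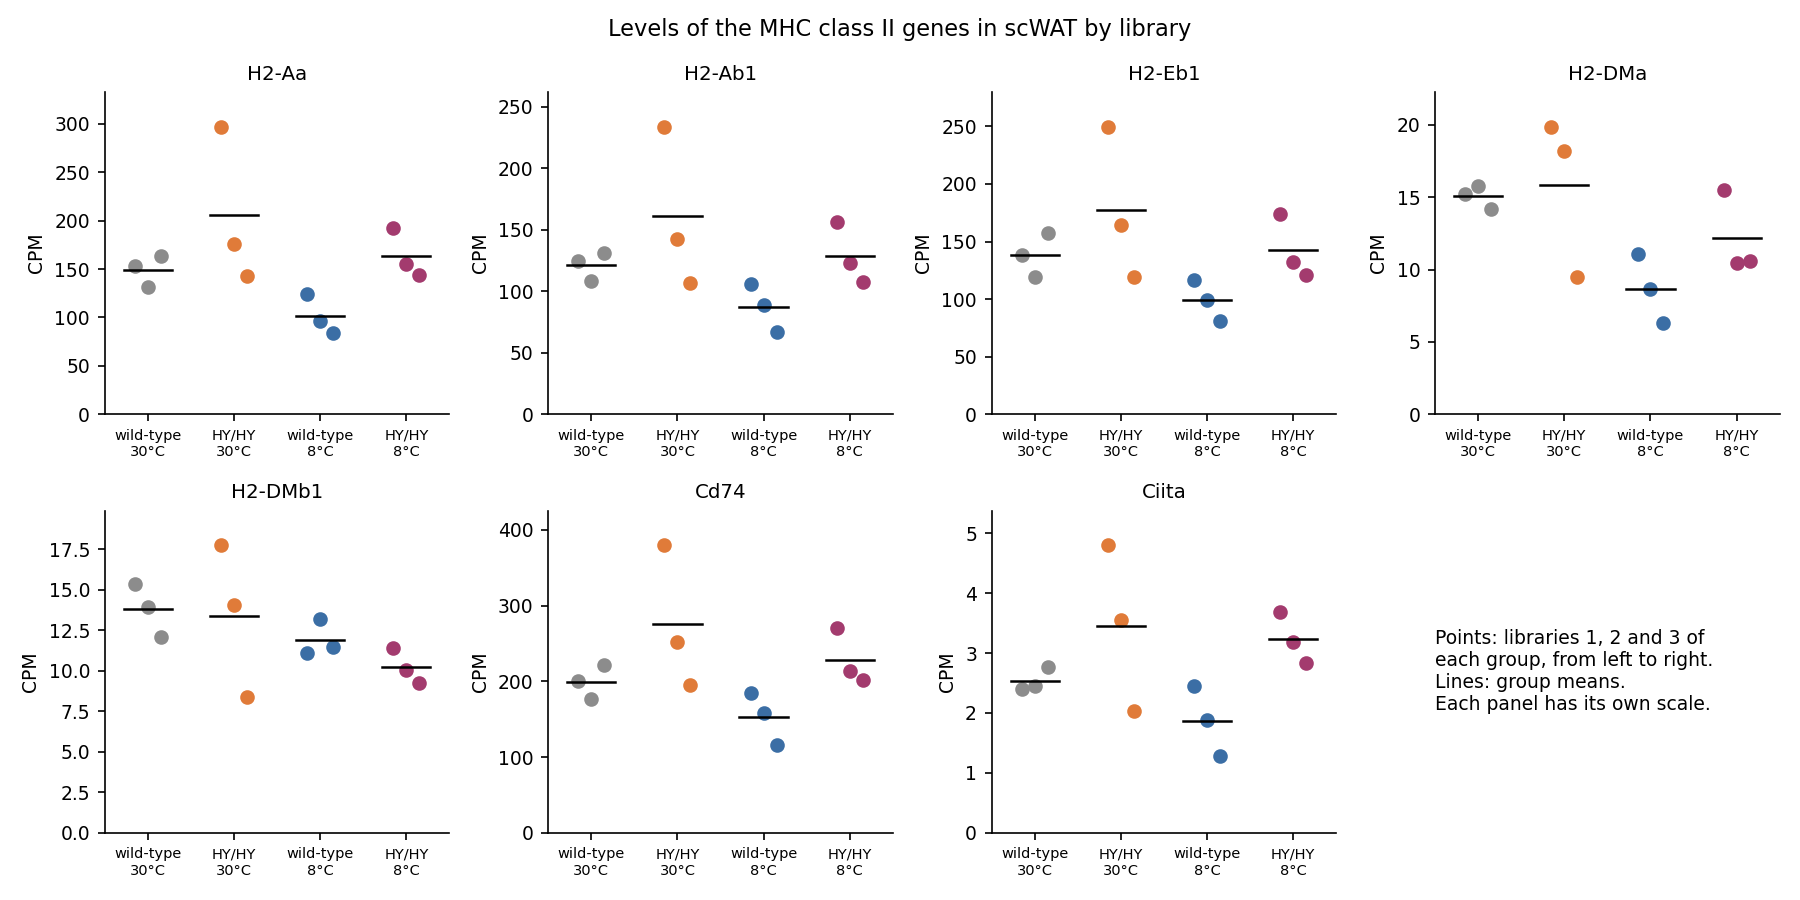
Level in CPM (y axis, from 0, each panel with its own scale) of the 7 MHC class II genes in the 3 libraries of each group (x axis), with lines at the group means. Wild-type mice at 8°C have the lowest mean for each gene except *H2-DMb1*, and HY/HY library 1 at 30°C is the highest point in each panel.

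Cold exposure in wild-type mice was compared first, to ask whether class II transcripts change while the tissue forms beige adipocytes. All 7 genes had lower means at 8°C than at 30°C, with log2 fold changes from −0.80 to −0.21 and a median of −0.48, beside a median of −0.07 over all genes tested. None of the 7 passed edgeR's quasi-likelihood test, in which a gene was called at a Benjamini-Hochberg adjusted p under 0.05 over all genes together with a fold above 1.5 in either direction. Over all genes, 17.2% were called, 10.3% higher and 6.84% lower. At an unadjusted p under 0.05 there were 2 of 7, and DESeq2 called 1 of 7, lower. Of all 16540 genes, DESeq2 called 1915 higher and 1195 lower. The share of all genes at an unadjusted p under 0.05 is not given here for any comparison, so such counts have no background beside them. *H2-DMa* was closest to the threshold, with a log2 fold change of −0.80 ± 0.28 (SE) and a 95% interval from −1.40 to −0.19 (adjusted p = 0.0546 by edgeR's quasi-likelihood test, 0.0362 by DESeq2). *H2-Aa* followed with −0.56 ± 0.25 and an interval from −1.10 to −0.02 (adjusted p = 0.117 by the same edgeR test). The remaining 5 genes had edgeR adjusted p-values from 0.170 to 0.523.

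The libraries did not overlap between 8°C and 30°C for 4 of the 7 genes (*H2-Aa*, *H2-Ab1*, *H2-Eb1* and *H2-DMa*), all lower at 8°C, whereas 22.7% of all genes tested were lower without overlap. Each of these 4 had an exact two-sided permutation p of 0.1, the smallest that 3 against 3 libraries allow. The call of *H2-DMa* depended on the settings. Among others, it was called lower with DESeq2, without a filter, with reads of both strands, with only the libraries of the comparison, without HY/HY library 3 at 30°C (−0.79, adjusted p = 0.0145 by edgeR) and without wild-type library 1 at 8°C (adjusted p = 0.0487 by edgeR). With library totals in place of TMM, 3 genes were called lower, but that scaling moved the median of all genes to −0.41. Relative to this shift, the difference of *H2-DMa* was −0.73 on the log2 scale.

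In HY/HY mice the same comparison of 8°C with 30°C gave log2 fold changes from −0.39 to −0.10, with a median of −0.32 beside −0.01 over all genes. None of the 7 genes was called by edgeR's quasi-likelihood test, where 0.248% of all genes were called, and none by DESeq2 or at an unadjusted p under 0.05. The 2 peptide editor genes had the lowest values, −0.39 ± 0.23 (SE) for *H2-DMb1* and −0.39 ± 0.27 for *H2-DMa*. The intervals reached from −0.98 to 0.57, so that falls past the fold limit of 1.5 lie inside them. For *H2-Aa*, *H2-Ab1*, *H2-Eb1*, *Cd74* and *Ciita* the direction rested on HY/HY library 1 at 30°C. Without it, their log2 fold changes were between 0.01 and 0.21. With any 1 library left out, *H2-DMa* stayed at −0.64 to −0.19 and *H2-DMb1* at −0.63 to −0.13. Without HY/HY library 3 at 30°C, *H2-DMb1* was called lower, at −0.63 (adjusted p = 0.0490 by edgeR).

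The comparison of genotypes at 30°C asks whether loss of the demethylase activity changes the pathway before cold. The means were higher in HY/HY mice for 6 genes, with *H2-DMb1* the exception, and the log2 differences ran from −0.04 to 0.47 with a median of 0.41, beside −0.01 over all genes. The largest were *Cd74* at 0.47 ± 0.24 (SE), *H2-Aa* at 0.46 ± 0.25 and *Ciita* at 0.45 ± 0.30, whose intervals all included 0. These sizes rested on HY/HY library 1 at 30°C, without which they were 0.16, 0.10 and 0.15. None of the 7 was called by edgeR's quasi-likelihood test (0.998% of all genes were), none by DESeq2 and none at an unadjusted p under 0.05. No gene had all 3 HY/HY libraries above all 3 wild-type libraries, as 7.66% of all genes did.

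At 8°C the means of HY/HY mice were above those of wild-type mice in 6 of 7 genes, by log2 differences of 0.49 to 0.80, and *H2-DMb1* was at −0.22. The median was 0.57, beside 0.01 over all genes. In all 3 HY/HY libraries *H2-Aa*, *H2-Ab1*, *H2-Eb1*, *Cd74* and *Ciita* were above all 3 wild-type libraries, so that 5 of 7 genes were higher without overlap, against 16.4% of all genes tested. *Ciita* had the largest difference, 0.80 ± 0.33 (SE) or 1.74-fold, with an interval from 0.09 to 1.51. *H2-Aa* differed by 0.69 ± 0.25 or 1.62-fold, with an interval from 0.15 to 1.23. *Cd74* differed by 0.58 ± 0.24, with an interval from 0.06 to 1.10.

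None of these differences was called in edgeR's quasi-likelihood test, in which 5.85% of all genes were called, 1.51% higher and 4.34% lower in HY/HY mice. The adjusted p-values ran from 0.116 for *H2-Aa* to 0.630 for *H2-DMb1* in that test. At an unadjusted p under 0.05 there were 3 of 7 (*H2-Aa*, *Cd74* and *Ciita*), and DESeq2 called 0 of 7. The call of *H2-Aa* depended on the settings. Among others, it was called higher with only the 6 libraries at 8°C in the fit (0.70, adjusted p = 0.0217 by edgeR) and without HY/HY library 1 at 30°C (0.69, adjusted p = 0.0337 by edgeR), a library that is not in this comparison but adds to the shared estimate of spread. It was also called without that library and wild-type library 3 at 30°C, which were the highest in B cell markers other than *Ighm* (adjusted p = 0.0333 by edgeR).

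The difference of the cold responses between genotypes was tested as an interaction, with positive values where the log2 change by cold was higher in HY/HY mice. The log2 values ran from −0.18 for *H2-DMb1* to 0.41 for *H2-DMa*, with a median of 0.17 beside 0.04 over all genes. None of the 7 was called by edgeR's quasi-likelihood test at an adjusted p under 0.05, which 2.24% of all genes were, none by DESeq2 and none at an unadjusted p under 0.05. The intervals were wide, from −0.87 to 1.31 over the 7 genes. A difference of the cold response between genotypes was therefore not shown for any member, and the comparisons within wild-type mice and between genotypes at 8°C share the wild-type libraries at 8°C.

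**Figure D2:**
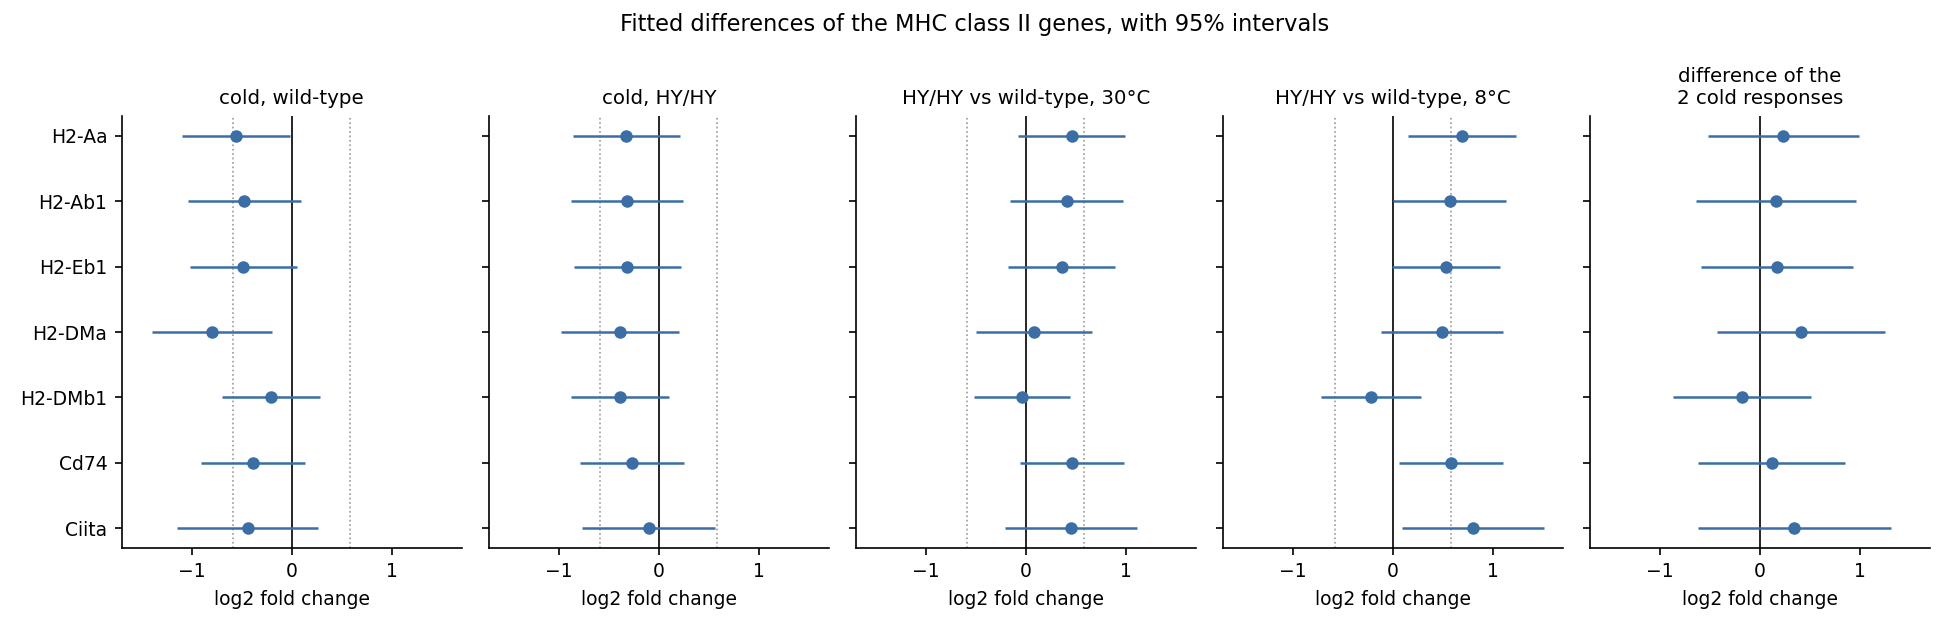
Fitted log2 fold changes (x axis) of the 7 MHC class II genes (y axis) in the 5 comparisons, with 95% intervals from edgeR's quasi-likelihood fit, and dotted lines at a fold of 1.5. In the comparison of genotypes at 8°C the intervals of *H2-Aa*, *Cd74* and *Ciita* lie above 0, and in wild-type mice under cold those of *H2-Aa* and *H2-DMa* lie below 0.

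The members were then compared with each other across the 12 libraries, on log2 CPM. For the 15 pairs of genes without *H2-DMb1*, Pearson's r was 0.83 to 0.99 and Spearman's rho 0.69 to 0.99. Over all 21 pairs, adjusted by the method of Benjamini and Hochberg, the permutation p-values of these 15 were at most 0.00104 for r and 0.0235 for rho, and the lowest, 3.5e-05, come from the smallest p the 100000 permutations can give. The I-A and I-E chain genes and *Cd74* were the tightest, at 0.98 to 0.99, *Ciita* correlated with these at 0.93 to 0.96, and *H2-DMa* at 0.83 to 0.87. With the 2 libraries farthest from the median of the first gene left out, r over the 15 pairs was 0.61 to 0.99. After each group's mean was taken off, so that only differences between mice of the same group remain, it was 0.80 to 0.99.

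*H2-DMb1* was the member that varied differently. Its r with the other 6 was 0.34 to 0.62 and its rho 0.19 to 0.63, and of these only that with *H2-DMa*, its partner chain, had an adjusted permutation p under 0.05 (r = 0.62, p = 0.0426). The relation with the other 5 did not hold without the 2 farthest libraries, where r was −0.11 to 0.19. With the group means taken off, r of *H2-DMb1* with the others over all groups was 0.67 to 0.75. This did not hold in each group. In both HY/HY groups the libraries ranked alike for *H2-DMb1* and *H2-Aa*. In wild-type mice the library highest in *H2-Aa* was the lowest of its group in *H2-DMb1*. This was library 3 at 30°C (164 and 12.1 CPM) and library 1 at 8°C (124 and 11.1 CPM). The genes of a library share its depth and scaling factor.

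**Figure D3:**
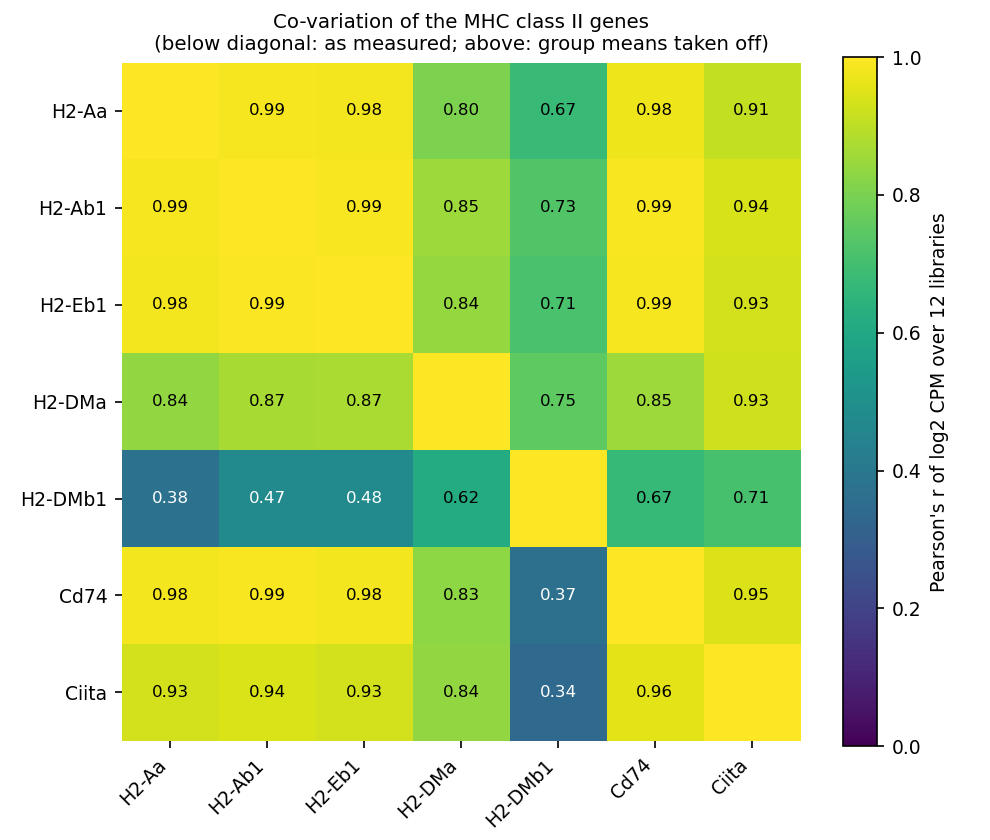
Pearson's r of log2 CPM over the 12 libraries for each pair of the 7 genes (both axes), as measured below the diagonal and with the group means taken off above it. The row of *H2-DMb1* below the diagonal holds the low values, 0.38 to 0.62 with the genes to its left, and its column above the diagonal is at 0.67 to 0.75.

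Ratios within a library do not depend on library size or on its scaling, and were taken after the pattern of *H2-DMb1* had been seen. Per 100 read pairs of *Cd74*, *H2-Ab1* had 53.4 to 62.0, *H2-Eb1* 60.1 to 70.8 and *H2-Aa* 61.0 to 78.2 over the 12 libraries, so that the ratio of each chain gene to the invariant chain varied at most 1.28-fold. *Ciita* had 1.04 to 1.49. The levels of these genes in CPM differed by over 3-fold between libraries. The groups still did not overlap in 3 of the chain gene ratios. By cold in wild-type mice the ratio to *Cd74* was 0.892 times as high for *H2-Aa* and 0.939 times for *H2-Ab1*, and at 30°C it was 0.925 times as high in HY/HY as in wild-type mice for *H2-Eb1* (exact permutation p = 0.1 each).

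The peptide editor genes had wider ratios to *Cd74*. *H2-DMb1* had 5.44 to 7.88 read pairs per 100 of *Cd74* at 30°C in wild-type mice and 6.0 to 9.92 at 8°C, but 4.30 to 5.57 and 4.22 to 4.70 in HY/HY mice. At 8°C the genotypes did not overlap, and the ratio in HY/HY mice was 0.567 times that in wild-type mice (exact two-sided permutation p = 0.1, the smallest possible). In wild-type mice *H2-DMa* had 6.40 to 8.93 at 30°C but 5.43 to 6.0 at 8°C, again without overlap, a ratio of 0.745 (exact permutation p = 0.1). In HY/HY mice it had 4.89 to 7.22 and 4.87 to 5.73, which overlap. The ratio of *Ciita* to *Cd74* was 1.18 times higher in HY/HY than in wild-type mice at 8°C, also without overlap (exact permutation p = 0.1). Of 24 such ratio comparisons, 6 had groups without overlap, and with 3 libraries a group none can pass 0.05. The share without overlap among the ratios of all other genes to *Cd74* was not counted.

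**Figure D4:**
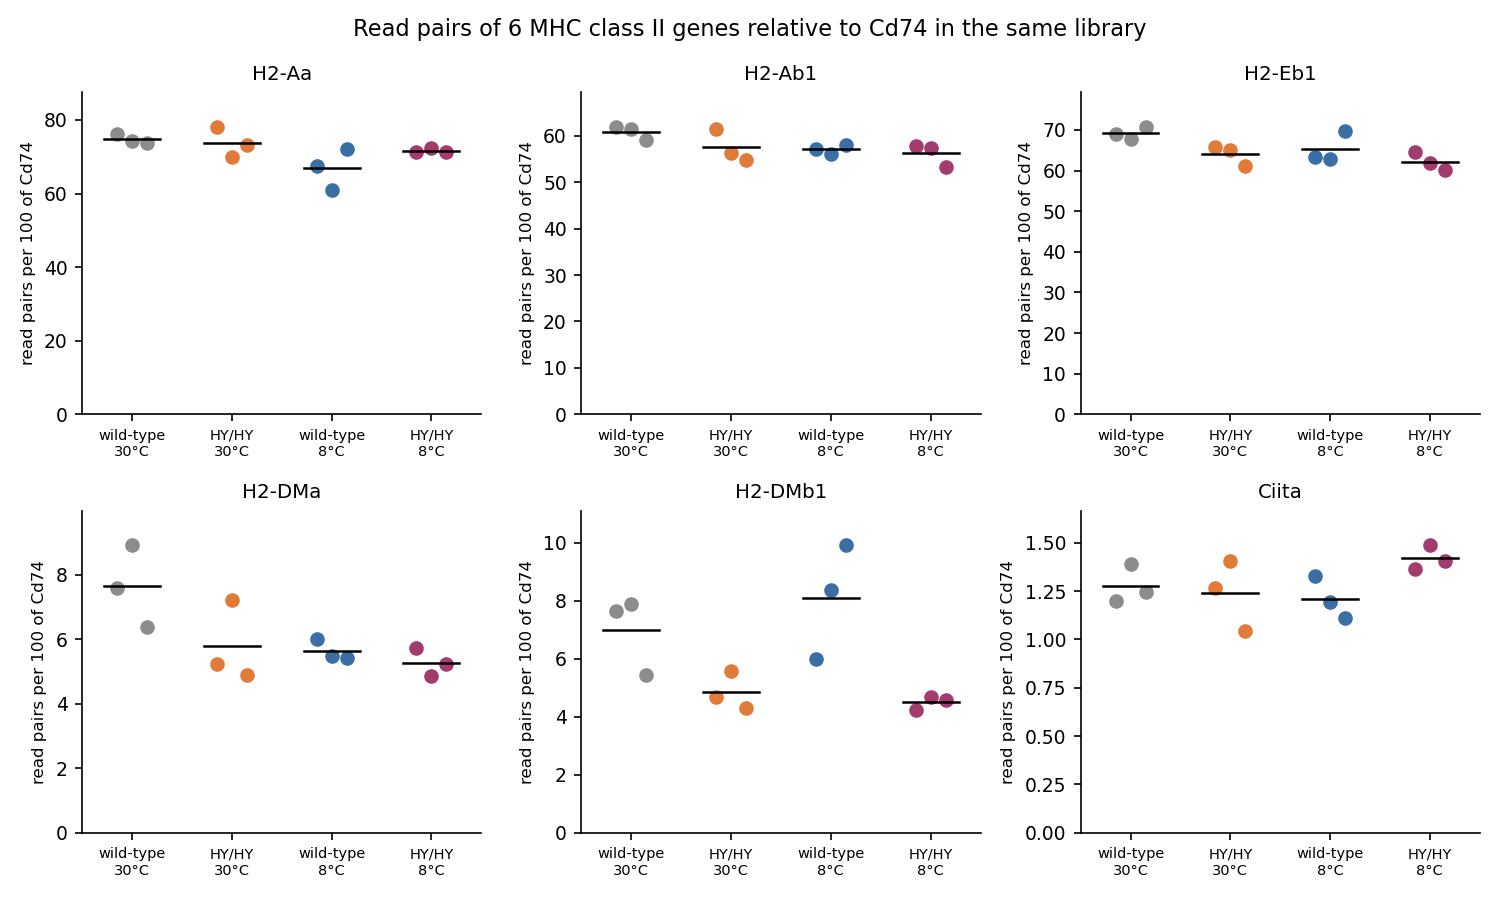
Read pairs of 6 class II genes per 100 read pairs of *Cd74* (y axis, from 0) in the 3 libraries of each group (x axis), with lines at the group means. The chain genes lie on nearly level lines, *H2-DMb1* is at 6.0 to 9.92 in wild-type and 4.22 to 4.70 in HY/HY mice at 8°C, and *H2-DMa* is highest in wild-type mice at 30°C.

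The other genes of the pathway were examined as lists. Among the 6 other class II chain entries, *H2-Ea* was at 0 in every library, *H2-Eb2* had 6 read pairs or fewer in each library and was not tested, and the 3 tested genes (*H2-Oa*, *H2-Ob* and *H2-DMb2*) had 0 calls in any of the 5 comparisons by edgeR or DESeq2, and 0 at an unadjusted p under 0.05. *H2-Oa* and *H2-Ob* encode the brake on the peptide editor. *H2-Ob* was highest in the same HY/HY library 1 (4.84 CPM) and in wild-type library 3 (4.15 CPM) at 30°C, and at 1.04 to 2.49 CPM elsewhere. These libraries were the highest in B cell markers other than *Ighm*.

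By cold in wild-type mice, where 10.3% of all genes were called higher, 1 of 17 tested regulators of class II transcription and turnover was. This was *Nfyc*, a subunit of the factor that binds the Y box, which rose from 28.8 ± 0.980 to 48.1 ± 0.735 CPM (SD, n = 3), a log2 fold change of 0.74 ± 0.11 (adjusted p = 0.000773 by edgeR's quasi-likelihood test). Its partner *Nfya* passed the limit on p but not on the fold, at −0.40 ± 0.13 (adjusted p = 0.0422 by the same test), and *Nfyb* was at −0.34 ± 0.12 (adjusted p = 0.0667). The X box factor *Rfx5* was at −0.49 ± 0.17 (adjusted p = 0.0528), and its partners *Rfxank* and *Rfxap* were at 0.15 and −0.04. At 8°C *Nfyc* was lower in HY/HY than in wild-type mice by a log2 difference of −0.56 ± 0.11 (adjusted p = 0.0126), under the fold limit. No regulator was called in the other 4 comparisons by edgeR, where 1 to 4 had an unadjusted p under 0.05, and DESeq2 called 2 in the interaction and 0 in the other 3. In the cold comparison of wild-type mice, where *Nfyc* rose, the log2 values of all 7 class II genes were negative. Any link of *Nfyc* or the other regulators to the class II levels was not tested.

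Among 8 tested enzymes that prepare peptides in the endosome, 1 was called higher at 8°C than at 30°C in wild-type animals, beside 10.3% of all genes. In the other comparisons 0 were called by edgeR, where 1 to 2 had an unadjusted p under 0.05. DESeq2 called 1 higher and 1 lower by cold in wild-type mice. It called 1 higher in HY/HY than in wild-type mice at 30°C and 1 at 8°C, and 0 by cold in HY/HY mice and in the interaction. *Ctsd*, cathepsin D, rose by 0.70 ± 0.20 on the log2 scale (adjusted p = 0.0287 by edgeR's quasi-likelihood test). It was not called without wild-type library 2 at 30°C. Below the fold limit, *Lgmn*, the endosomal protease legumain, was at 0.45 ± 0.13 (adjusted p = 0.0236), and *Ifi30*, the thiol reductase that unfolds antigens, was at −0.51 ± 0.11 (adjusted p = 0.00639). *Ctss*, cathepsin S, which trims the invariant chain, was at 12.4 to 18.9 CPM in wild-type and 26.4 to 32.6 CPM in HY/HY mice at 8°C, without overlap. Its log2 difference was 0.96 ± 0.29, with an adjusted p of 0.0666 by edgeR and 0.0197 by DESeq2. Of 6 tested co-stimulation genes 0 were called in any comparison by edgeR or DESeq2, with 0 to 2 at an unadjusted p under 0.05. *Cd86*, a ligand of T cell co-stimulation, was at 0.72 ± 0.25 between genotypes at 8°C (adjusted p = 0.102 by edgeR).

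For comparison, the class I pathway, which presents peptides made inside the cell, was set beside class II. Of 13 tested genes 3 were called lower by cold in wild-type mice: *Psmb8*, an immunoproteasome subunit, at −0.63 ± 0.10, and the peptide transporter genes *Tap1* at −0.68 ± 0.13 and *Tap2* at −0.87 ± 0.16 (adjusted p = 0.000909, 0.00379 and 0.00274 by edgeR's quasi-likelihood test). Over all genes, 6.84% were called lower in that comparison. *Psmb8*, *Tap1* and *Tap2* lie in the MHC among the class II genes. No class I gene was called in the other 4 comparisons by edgeR or DESeq2, where 1 to 4 had an unadjusted p under 0.05, and the median difference between genotypes at 8°C was 0.08, beside 0.57 for the class II genes. Of 12 tested targets of interferon gamma, the inducer of *Ciita*, 0 were called in any comparison by edgeR, 1 was called higher in HY/HY mice at 8°C by DESeq2, and 1 to 2 had an unadjusted p under 0.05. Their median was −0.09 in cold in wild-type mice and 0.16 between genotypes at 8°C.

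Markers of the cells that carry class II molecules are given beside these results. The 16 macrophage markers, none of them at 0, summed to 539 to 653 CPM at 30°C in wild-type mice and 402 to 440 at 8°C, and to 432 to 741 and 543 to 645 in HY/HY mice. The summed class II level was 568 to 702 and 366 to 556 CPM in wild-type mice and 582 to 1204 and 597 to 824 in HY/HY mice, so both sums were lower in wild-type mice at 8°C than in either the wild-type mice at 30°C or the HY/HY mice at 8°C. Much of the macrophage sum came from *Cd9*, a tetraspanin that many other cells also make, at 295 ± 68.0 and 181 ± 21.1 CPM (SD, n = 3) in wild-type mice and 185 ± 79.8 and 161 ± 23.9 in HY/HY mice. Without *Cd9* the sum was 285 to 305 and 243 to 246 CPM in wild-type mice and 321 to 542 and 354 to 501 in HY/HY mice. Wild-type mice at 8°C still had the lowest sum, while the gap by cold in wild-type mice was smaller. Each wild-type library at 30°C was then below each HY/HY library at either temperature, which was not so with *Cd9*. Between genotypes at 30°C, edgeR called 0 of the 16 markers and DESeq2 called 1 higher. Over all genes, 1.51% were called higher and 4.34% lower in HY/HY than in wild-type mice at 8°C by edgeR's quasi-likelihood test. Of the 16 macrophage markers, 4 were called higher in this comparison, and 0 lower. Among them were *Mrc1*, the mannose receptor, at 1.22 ± 0.20 (adjusted p = 0.00534), *Csf1r*, the receptor for the macrophage growth factor, at 1.17 ± 0.23 (adjusted p = 0.0119) and *Cd163*, a haptoglobin scavenger receptor, at 1.30 ± 0.30 (adjusted p = 0.0225). Without HY/HY library 1 at 30°C, 7 of the 16 were called. The median over the macrophage markers was 0.60, close to the 0.57 of the class II genes. In cold in wild-type mice their median was −0.20, 0 were called by edgeR or DESeq2, and 1 had an unadjusted p under 0.05. The part of macrophage content in the class II levels was not tested.

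The dendritic cell markers, of which 11 were tested, summed to 51.4 to 70.8 CPM at 30°C in wild-type mice and 61.5 to 76.4 at 8°C, and to 51.9 to 90.9 and 72.2 to 77.9 in HY/HY mice. None of the defining genes *Itgax*, *Zbtb46* and *Flt3* was at 0. Between genotypes at 8°C the median log2 difference of the tested markers was −0.43, opposite in sign to the 0.57 of the class II genes. In that comparison 0 were called by edgeR, 1 was called higher in HY/HY mice by DESeq2, and 3 had an unadjusted p under 0.05. *Zbtb46* was called higher by cold in wild-type mice (0.64 ± 0.14, adjusted p = 0.00676 by edgeR's quasi-likelihood test), and is also expressed by endothelial cells. Apart from *Ighm*, the B cell markers were sparse. *Ms4a1* was at 0.180 to 1.39 CPM and *Cd79a* at 0.361 to 4.84, and 0 of 10 tested markers were called in any comparison by edgeR, with 0 to 1 at an unadjusted p under 0.05 or by DESeq2. *Ighm*, the heavy chain of IgM that plasma cells make too, was at 24.5 to 62.0 CPM at 30°C and 24.8 to 51.3 at 8°C in wild-type mice, and at 73.0 to 344 and 64.8 to 234 in HY/HY mice, so the genotypes did not overlap at either temperature. Its log2 difference was 2.24 ± 0.60 at 30°C and 2.09 ± 0.60 at 8°C, with adjusted p-values of 0.0880 and 0.0579 by edgeR's quasi-likelihood test and 0.0222 and 0.0230 by DESeq2. HY/HY library 1 and wild-type library 3 at 30°C, the 2 highest in B cell markers other than *Ighm*, had summed class II levels of 1204 and 702 CPM, each the highest of its genotype. The part of B cells in the class II levels was not tested.

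The mammary epithelium markers, which come from gland tissue in the female fat pad, summed to 4296 to 5686 CPM at 30°C in wild-type mice and 2615 to 2953 at 8°C, and to 2088 to 3669 and 2984 to 3131 in HY/HY mice. By cold in wild-type mice, where the class II means were also lower, 3 of 11 tested genes were called lower by edgeR, beside 6.84% of all genes. Without wild-type library 2 at 30°C, 0 of the 11 were called. Between genotypes at 8°C the members differed in direction, with a median of −0.05 and 0 called. *Krt8*, a keratin of the gland's luminal cells, was at 586 ± 54.9 CPM in wild-type and 338 ± 118 in HY/HY mice (SD, n = 3), whereas *Trf*, the transferrin gene, which other cells also express, was at 1040 ± 61.0 and 1766 ± 184 CPM. Without *Trf* the sum at 8°C was 1635 to 1851 CPM in wild-type and 1024 to 1536 in HY/HY mice, the opposite order to that of the class II genes. The T cell markers summed to 14.4 to 31.7 and 8.53 to 14.9 CPM in wild-type mice and 11.6 to 23.8 and 11.4 to 12.4 in HY/HY mice, with 0 of 11 tested genes called in any comparison by edgeR or DESeq2. At an unadjusted p under 0.05 there were 6 of these 11 by cold in wild-type mice and 0 to 2 in the other comparisons. The lymph node stroma markers summed to 125 to 187 and 134 to 167 CPM in wild-type mice and to 132 to 321 and 249 to 409 in HY/HY mice, and *Chst4*, an enzyme of lymph node venules, was at 0 in every library. Nearly all of this sum was *Enpp2*, the gene of autotaxin, which adipocytes also make. *Enpp2* was called higher in HY/HY mice at 8°C, by 1.06 ± 0.29 (adjusted p = 0.0497 by edgeR's quasi-likelihood test). It was not called without wild-type library 2 at 30°C. *Madcam1*, an adhesion molecule of venules, went the other way, at 2.07 ± 0.538 CPM in wild-type and 0.240 ± 0.154 in HY/HY mice at 8°C (SD, n = 3), a difference of −3.02 ± 0.56 (adjusted p = 0.00920 by edgeR). In the wild type it rose under cold by 2.33 ± 0.49 (adjusted p = 0.00624 by edgeR). Without *Enpp2* the sum was 15.5 CPM in HY/HY library 1 at 30°C, the library highest in class II genes, and 0.260 to 3.51 CPM in the others. Of these 15.5 CPM, 15.3 were of *Cxcl13*, a chemokine that attracts B cells. The part of these tissues in the class II levels was not tested.

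**Figure D5:**
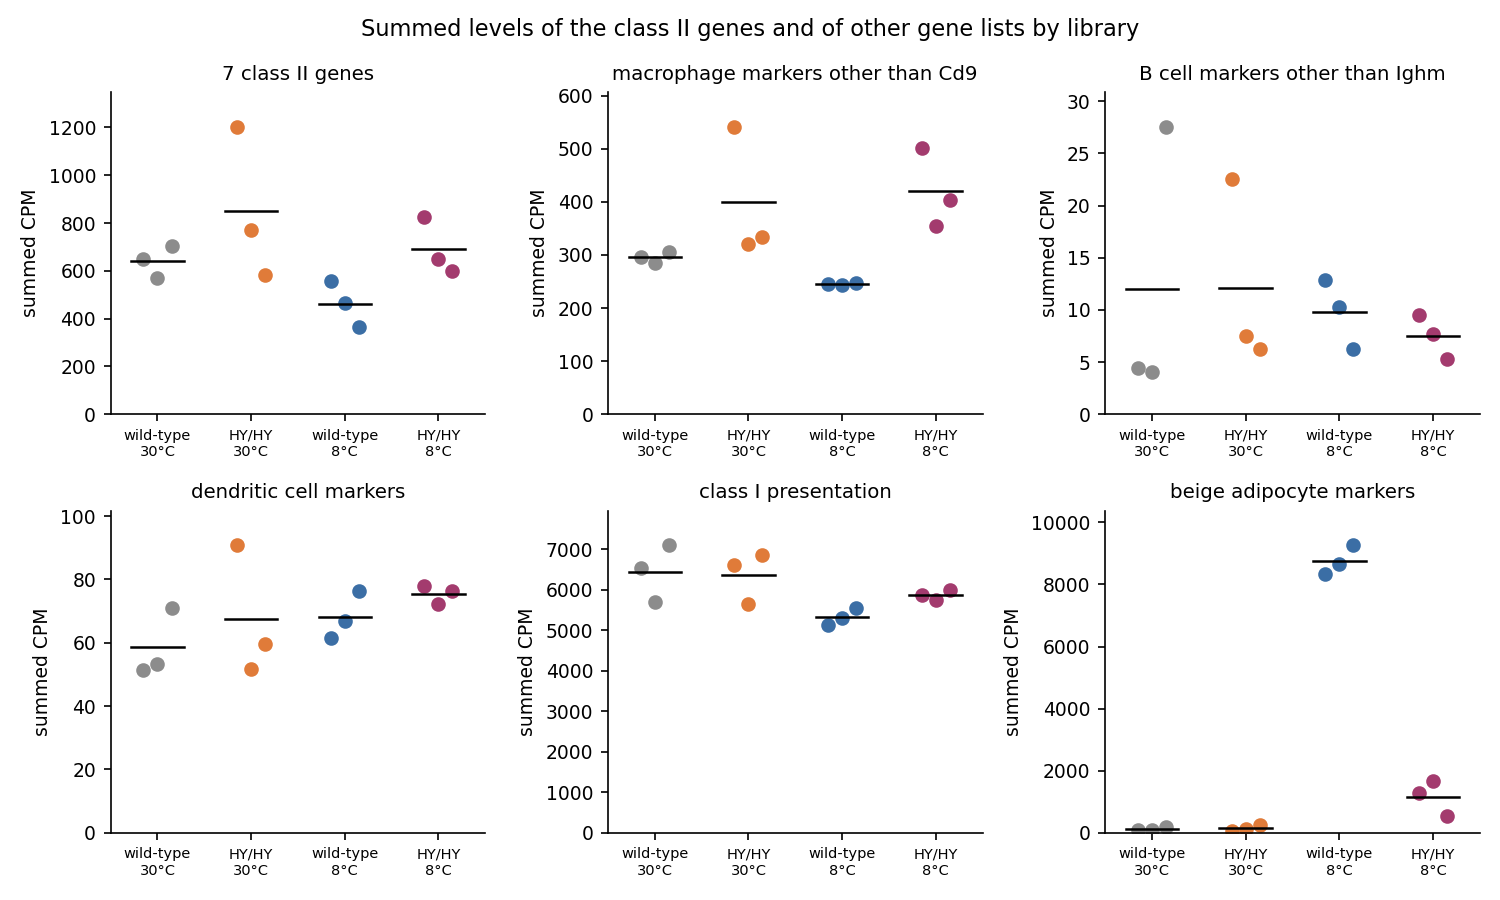
Summed CPM (y axis, from 0) of the 7 class II genes and of 5 other gene lists in the 3 libraries of each group (x axis), with lines at the group means. Class II genes and macrophage markers other than *Cd9* are both low in wild-type mice at 8°C, at 366 to 556 and 243 to 246 CPM, whereas B cell markers other than *Ighm* are high in 1 library of each genotype at 30°C and beige adipocyte markers are highest in wild-type mice at 8°C.

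The genes whose pattern was most like that of the class II genes were found by Pearson's r over the 12 libraries with the mean of the standardised log2 CPM of the members, over the tested genes other than the members. They are a description without a test. The 10 highest were *Fgd2* (0.93), *Zmym4* (0.92), *Laptm5* (0.91), *Osmr* (0.91), *Tyrobp* (0.91), *Pdgfrl*, *Crtc3*, *Lyz2*, *Akna* and *Myo1f* (0.88). *Tyrobp*, an adaptor of activating receptors on myeloid cells, was at 16.2 CPM in wild-type mice at 30°C, 13.1 at 8°C, 19.6 in HY/HY mice at 30°C and 18.5 at 8°C. *Lyz2*, the lysozyme of macrophages and neutrophils, was at 92.2, 70.6, 128 and 118 CPM in the same order. *Laptm5*, a lysosomal protein of blood cells, was at 29.9, 21.9, 35.0 and 32.0 CPM.

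With the group means taken off, the 10 genes were *Cdk5rap2* (0.98), *Zmym4* (0.95), *Rnf216* (0.95), *Unc93b1* (0.94), *Dclk2* (0.94), *Birc3* (0.93), *2610035D17Rik*, *Fgd2*, *Tmem194* and an entry without a symbol (0.92). *Fgd2* and *Zmym4* stood in both lists of 10. *Unc93b1*, which carries Toll-like receptors to endosomes, was at 67.4 CPM in wild-type mice at 30°C and 49.1 at 8°C, and at 60.9 and 56.1 CPM in HY/HY mice.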

How the data were processed

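RNA-seq libraries of scWAT from 12 mice in 4 groups of 3 were analysed. The authors trimmed paired 50-base reads with fastp, used STAR for alignment to mm10, and deposited raw counts of read pairs per gene for both strands, the antisense and the sense strand. The counting tool was not given in the sources used here. The 4 entries that name no gene held 55.8% to 63.5% of all pairs, including 26.7% to 32.2% aligned to several places, and stayed out of library sizes and tests. Of 55401 gene IDs, 32589 had a symbol.

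Sense counts (95.5% to 96.2% of strand-assigned pairs) were filtered by filterByExpr, scaled by TMM and fitted with edgeR 4.0.16 in R 4.3.3, with 1 mean per group over all 12 libraries, 8 residual degrees of freedom. The biological coefficient of variation (common) was 20.7%. The paper's methods name no count test for these data. P-values are two-sided, adjusted over 16540 genes. Calls needed an adjusted p under 0.05 together with a change of more than 1.5-fold, or for the interaction the adjusted p alone. Correlations used log2 CPM (prior count 2) and 100000 permutations in SciPy 1.17.1. The model was tested on simulated data. Promoters are RefSeq's, GRCm38.p6.

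The 7 genes and the 17 gene lists were chosen with earlier results of these data known. The 7 genes are described in every comparison. Genes of the lists of class II chains, regulators, peptide processing and co-stimulation could be named freely. From the other lists, up to 3 called genes of lowest adjusted p and the first 3 genes were named. The 10 genes of most like pattern were named with and without group means taken off, and *Chst4*, *Ighm*, *Cd9* and *Trf* were named after their values were seen. Alternatives were DESeq2 1.42.0, library totals, mitochondrial genes left out of library sizes, other filters and limits, both strands, fewer libraries and a replicate block.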

Additional observations from a re-analysis of the deposited data

How the results depend on the processing

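None of the 7 class II genes was called in the 5 comparisons, and 25 of 728 refitted log2 values of single genes changed sign. By cold in wild-type mice, 1 gene was called with DESeq2, with both strands, without a filter or when the fit held the compared libraries only, 3 with library totals and 2 with the replicate block, and 0 to 1 with 1 library left out. Between genotypes at 8°C, 1 gene was called with the replicate block or when the fit held the compared libraries only. The number was also 1 with the libraries richest in B cell markers other than *Ighm* left out (chosen after seeing the data). It was 0 to 1 with 1 library left out. By cold in HY/HY mice it was 0 to 1 with 1 library left out, and in the other comparisons 0 in every refit. Limits on p of 0.01, on the fold of 2 or none gave 0 calls throughout. Library totals moved the median of all genes to −0.41 by cold in wild-type mice, −0.15 in HY/HY mice, 0.15 between genotypes in the cold, and 0.25 in the interaction.

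The libraries richest in B cell markers other than *Ighm* were left out in 1 refit. There the log2 change by cold in HY/HY mice was 0.035 for *Cd74*, 0.21 for *Ciita*, 0.040 for *H2-Aa*, 0.053 for *H2-Ab1* and 0.012 for *H2-Eb1*. The genotype difference of *H2-DMa* at 30°C was −0.15 and the interaction of *H2-DMb1* was 0.16. Each of these was of the opposite sign to the values above. With library totals the interaction of *H2-DMb1* was 0.0001. With 1 library left out, the change by cold in HY/HY mice ranged from −0.53 to 0.040 for *H2-Aa*, −0.54 to 0.053 for *H2-Ab1*, −0.53 to 0.012 for *H2-Eb1*, −0.46 to 0.035 for *Cd74* and −0.36 to 0.21 for *Ciita*. The genotype difference at 30°C ranged from −0.11 to 0.34 for *H2-DMa* and −0.29 to 0.21 for *H2-DMb1*. The interaction ranged from −0.067 to 0.53 for *H2-Ab1*, −0.053 to 0.50 for *H2-Eb1*, −0.42 to 0.075 for *H2-DMb1* and −0.081 to 0.42 for *Cd74*. The cause was not tested.

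The replicate numbers are of different mice. Of same-numbered pairs of libraries, 11 of 18 deviated together at r above 0.1 (median 0.11), against 5 of 36 other pairs (median −0.05). The samples were not taken as paired, since this would have needed all 18, and the fit with the block is given as an alternative. 5 of 12 libraries correlated best with their own number. With the replicate block, *H2-DMa* (−0.84, adjusted p = 0.0104 by edgeR) and *H2-Aa* (−0.59, adjusted p = 0.0302) passed for cold in wild-type mice and *H2-Aa* (0.70, adjusted p = 0.0331) between genotypes at 8°C. *Ciita* rests on 20 to 124 read pairs a library, the fewest of the 7, and 3 mice a group limit each test.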
